A study of Homo sapiens with 9 samples.

Results

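The transcriptional coactivators YAP (YAP1) and TAZ (WWTR1), the TEAD factors that carry them to DNA (TEAD1, TEAD3 and TEAD4) and 4 genes known as their targets (CCN1, CCN2, AMOTL2 and AJUBA) were followed through the RNA sequencing of 9 libraries. The authors name the cells IMR-32, an established human neuroblastoma line, and this name is used here as a label. The genes were chosen by name as a group that belongs to a mesenchymal neuroblastoma programme, and all 9 of 9 had a row among the 22290 genes of the table. Of the 9 genes, 8 had a mean of at least 8 over the libraries, a level that 9956 of all genes reached, and AJUBA lay below it. The libraries came from parental cells, from cells labelled TRAP-1 knockdown (KD) and from cells labelled TRAP-1 overexpression (OE), with 3 libraries per group. TRAP-1 is a mitochondrial chaperone of the HSP90 family. The KD and OE cells were made in earlier work, and the vector, its promoter and the number of clones are not given in the sources used here. Nothing in those sources says that the 3 libraries of a group came from separate cultures. The p-values therefore set differences against the spread between libraries within a group, which may be technical. Values are regularized log2 values (rlog), which are counts scaled for library size, put on a log2 scale and pulled toward each gene's own mean, most of all for genes with few reads. Differences between groups are therefore log2 differences that understate the change of low genes. The authors' methods state a coverage in reads without a total for each library, and the table used here gives no such total.

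The targeted gene was examined before the other genes. TRAP1 was 10.67, 10.66 and 10.65 in the parental libraries, 10.79, 10.79 and 10.83 in the libraries labelled KD, and 10.67, 10.63 and 10.74 in the libraries labelled OE. The KD label thus went with higher TRAP1 RNA, by 0.14 (limma, adjusted p = 1.8e-05), and each of its 3 libraries exceeded every parental library. The libraries labelled OE overlapped the parental libraries, and the 95% confidence interval of their difference ran from -0.03 to 0.07. After the median of each 20-Mb stretch of chromosome was removed from every library, limma called this difference at 0.0637, with an adjusted p of 0.0343 in a range of 0.0343 to 0.782 over 17 alternatives. Of the exonic bases of TRAP1 28.5% are shared with DNASE1 and ENSG00000263235, and the kit does not mark the strand. The values of TRAP1 go against the KD label, and KD and OE stand below for the labels of the libraries.

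The Hippo pathway is a kinase cascade in which MST and LATS kinases phosphorylate YAP and TAZ, which are then held in the cytoplasm or degraded. When the cascade is less active, YAP and TAZ enter the nucleus, bind TEAD factors, often beside AP-1 at enhancers, and raise the transcription of genes for growth, adhesion and matrix. Neuroblastoma cells occur in an adrenergic state, with catecholamine enzymes and factors of the sympathetic lineage, and in a mesenchymal state, in which YAP and TAZ are known to be active. RNA levels alone do not show how much YAP or TAZ is in the nucleus.

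The label of the line was checked against markers of both states, at levels per length (mean rlog minus the log2 of the exonic length in kb), the scale on which genes can be compared with each other. In the parental libraries MYCN was 1.05, TH, the rate-limiting enzyme of catecholamine synthesis, was 1.17, and PHOX2A was 0.49, which placed them at percentiles 11.5, 12 and 9.14 of 14697 protein-coding genes. MYCN was thus close to the floor, although IMR-32 is known as a line with amplified MYCN and the authors' methods state that the line was authenticated. The adrenergic factors GATA2 and ISL1 were not low, at levels of 6.97 and 7.87 per length. Of the 19 adrenergic markers described, 11 had values and 8 were not analysed here. Markers of the mesenchymal state stood high, with VIM at 13.35, FOSL1 at 12.85, CD44 at 11.37 and MEOX2 at 11.23 in the parental libraries. The cells sequenced are therefore described here by these genes, with the name IMR-32 given as the label. Among genes of other cell types, ERBB3 and S100B of the Schwann cell list were at 10.43 and 10.24, and FOXD3 was at 5.24. KRT18 of the epithelial list was at 10.45 and EPCAM at 1.31. The epithelial genes measured other than KRT18 ran from -1.95 for ELF3 to 7.87 for CLDN4. The leukocyte gene PTPRC was at -1.30, and PECAM1 of the leukocyte and endothelial list was at 6.48.

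**Figure D1:**
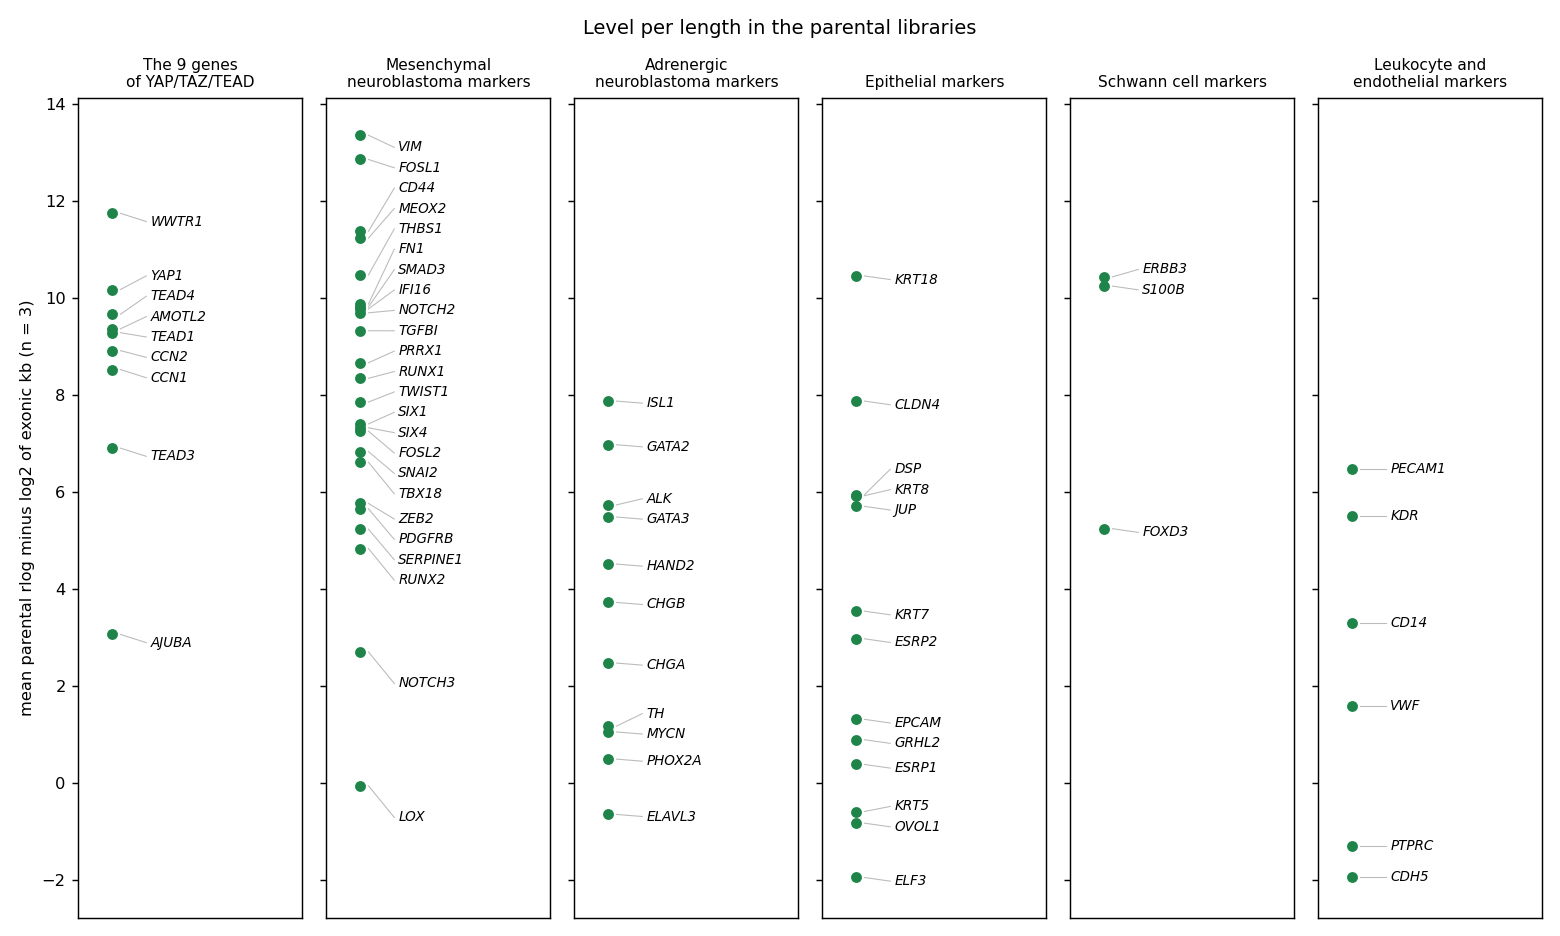
Level per length in the parental libraries (vertical axis: mean rlog of 3 libraries minus the log2 of the exonic length in kb) for the 9 genes and for 5 marker lists, 1 point per gene. WWTR1 at 11.74 and YAP1 at 10.17 lie among the high mesenchymal markers, and MYCN at 1.05 lies low among the adrenergic markers.

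Against parental, the libraries labelled KD had 8 of the 9 genes called at an adjusted p under 0.05, with YAP1, WWTR1 and TEAD1 higher and TEAD4, CCN1, CCN2, AMOTL2 and AJUBA lower. The background of this comparison was high: 53.7% of all genes were called, 26.9% higher and 26.9% lower, and 75.8% of the genes with a mean of at least 8, so the count of 8 of 9 is close to what genes of this level show in general. A call with a difference over 0.5 in size was made for CCN2 and AMOTL2, 2 of the 9 genes, and for 4.98% of all genes; after quantile normalization AMOTL2 was at -0.497, which leaves CCN2 alone. The libraries did not overlap between the groups for 8 of the 9 genes and for 59.2% of all genes. The median difference of the 9 genes was -0.12, beside -0.00051 over all genes.

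The libraries labelled OE had 7 of the 9 genes called against parental, with WWTR1 and TEAD1 higher and TEAD4, CCN1, CCN2, AMOTL2 and AJUBA lower. Of all genes 34.8% were called, 16.9% higher and 18% lower, and 56.7% of those with a mean of at least 8. CCN2 was the 1 gene of the 9 called with a difference over 0.5 in size, a rule that 0.897% of all genes met. The groups did not overlap for 7 of the 9 genes and for 43.2% of all genes. The median difference of the 9 genes was -0.13, beside 0.00039 over all genes. The comparisons of KD and of OE with parental use the same 3 parental libraries, so that their values are given side by side and the direct comparison of OE with KD serves as the test of where they differ.

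**Figure D2:**
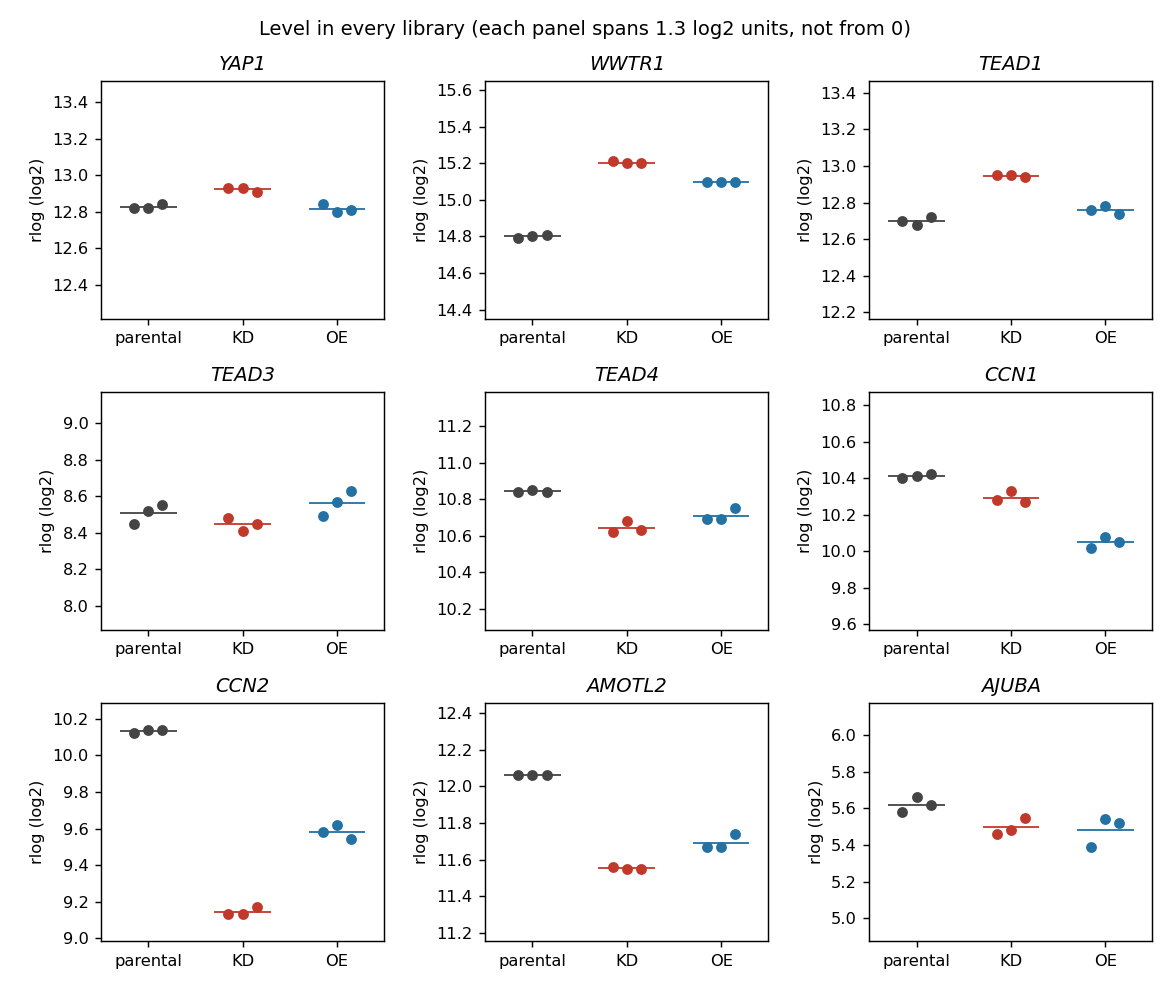
rlog value (log2, vertical axis) of each of the 9 genes in every library by group (horizontal axis), with 1 point per library and a line at the mean of each group. CCN2 lies between 10.12 and 10.14 in the parental libraries, between 9.13 and 9.17 in those labelled KD and between 9.54 and 9.62 in those labelled OE.

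Of the 2 coactivators, WWTR1, which encodes TAZ, had the higher RNA level per length and the larger differences from parental. WWTR1 (ENSG00000018408, chromosome 3 from 149517235 to 149736714 on the minus strand, GRCh38) was 14.79, 14.80 and 14.81 in the parental libraries, 15.21, 15.20 and 15.20 in those labelled KD and 15.10 in each of the 3 labelled OE. No 2 groups overlapped. WWTR1 was higher by 0.40 in KD (95% confidence interval 0.38 to 0.42, adjusted p = 4.1e-26 from limma) and by 0.30 in OE (0.28 to 0.32, adjusted p = 8.9e-22 from limma). It was lower in OE than in KD by a difference of -0.10 (adjusted p = 1.2e-10 from limma). Per length it stood at 11.74 in the parental libraries, at percentile 98 of the protein-coding genes. An antisense gene, WWTR1-AS1, shares 9.05% of its exonic bases, and the library kit did not mark the strand, so that reads of the pair in that stretch cannot be told apart.

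YAP1 (ENSG00000137693, chromosome 11 from 102110447 to 102233424 on the plus strand) was 12.82, 12.82 and 12.84 in the parental libraries, 12.93, 12.93 and 12.91 in those labelled KD, and 12.84, 12.80 and 12.81 in those labelled OE. The libraries labelled KD lay above the other 6, and those labelled OE overlapped the parental ones. The rise in KD was 0.10 (95% confidence interval 0.07 to 0.13, adjusted p = 2.0e-06 from limma), while the difference of OE from parental had an interval of -0.05 to 0.02. The direct difference of OE from KD was -0.11 (adjusted p = 2.8e-07 from limma). Per length the level of YAP1 was 10.17 in the parental libraries, below that of WWTR1, at percentile 91.9. Other annotated genes share 10.1% of its exonic bases.

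The TEAD factors did not move together. TEAD1 (ENSG00000187079, chromosome 11 from 12674421 to 12944737, plus strand) was 12.70, 12.68 and 12.72 in the parental libraries, 12.95, 12.95 and 12.94 in KD, and 12.76, 12.78 and 12.74 in OE. All KD libraries and all OE libraries were above the parental ones, with differences of 0.25 in KD (adjusted p = 5.1e-15 from limma) and 0.06 in OE (adjusted p = 0.00343 from limma). TEAD1 was lower in OE than in KD by a difference of -0.19 (adjusted p = 5.5e-12 from limma). TEAD4 (ENSG00000197905, chromosome 12 from 2959330 to 3040676, plus strand) went the other way, from 10.84, 10.85 and 10.84 in the parental libraries to 10.62, 10.68 and 10.63 in KD and 10.69, 10.69 and 10.75 in OE. It fell by 0.20 in KD (adjusted p = 1.2e-08 from limma) and by 0.13 in OE (adjusted p = 3.0e-05 from limma), with no overlap with parental in either. The direct difference of TEAD4 between OE and KD, 0.07 (adjusted p = 0.0232 from limma), was not called without KD replicate 1, without KD replicate 3 or without OE replicate 3, where it was 0.0529, 0.0593 and 0.0468.

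TEAD3 (ENSG00000007866, chromosome 6 from 35473597 to 35497079, minus strand) was 8.45, 8.52 and 8.55 in the parental libraries, 8.48, 8.41 and 8.45 in KD, and 8.49, 8.57 and 8.63 in OE. The parental libraries overlapped both other groups. Its difference from parental had a 95% confidence interval of -0.14 to 0.02 in KD and of -0.02 to 0.14 in OE, neither called. After the medians of 20-Mb blocks were removed limma called the KD difference at -0.127, with an adjusted p of 0.00585 in a range of 0.00585 to 0.507 over 17 alternatives. OE was above KD by 0.12 (adjusted p = 0.0126 from limma), a call that was lost without KD replicate 2, at 0.099, and without OE replicate 3, at 0.081. TEAD2, the paralogue outside the 9 genes (ENSG00000074219), was at a level of 6.37 per length in the parental libraries, beside 9.28 for TEAD1, 9.66 for TEAD4 and 6.9 for TEAD3. TEAD2 rose by 0.43 in KD (adjusted p = 8.6e-11 from limma) and by 0.33 in OE (adjusted p = 5.5e-08 from limma).

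CCN2, which encodes the secreted matrix protein once named CTGF and is widely used as a readout of YAP and TAZ, had the largest difference of the 9 genes in both comparisons with parental. The 250 bases before its start are shown because the gene fell in both and because they hold the TEAD motif 3 times. The sequence is that of RefSeq on GRCh38.p14, 5′ to 3′ on the strand of the gene, with the letters GGAATG in capitals.
CCN2, chr6:131951373-131951622, minus strand: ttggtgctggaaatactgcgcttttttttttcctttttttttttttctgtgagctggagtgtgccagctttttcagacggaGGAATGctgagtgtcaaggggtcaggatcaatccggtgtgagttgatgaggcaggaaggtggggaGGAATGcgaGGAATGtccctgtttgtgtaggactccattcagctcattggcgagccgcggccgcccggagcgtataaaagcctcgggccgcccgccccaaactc
The 3 matches begin 169, 104 and 95 bases before the start of transcription, all on the strand of the gene, with few bases between the last 2. GGAATG was searched on both strands (CATTCC on the other) over the 250 bases before each start. Of 34943 such windows 11.9% held it at least once and 0.083%, or 29 windows, at least 3 times. The AP-1 motif TGANTCA, which reads the same on both strands, was in none of the 9 windows of the genes described here and in 6.59% of all windows. A match is a description of the sequence and shows no binding.

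CCN2 (ENSG00000118523, chromosome 6 from 131948176 to 131951372) was 10.12, 10.14 and 10.14 in the parental libraries, 9.13, 9.13 and 9.17 in those labelled KD, and 9.58, 9.62 and 9.54 in those labelled OE. The groups stood apart in the order parental, OE, KD. CCN2 fell by 0.99 in KD (95% confidence interval -1.05 to -0.93, adjusted p = 6.8e-24 from limma), a ratio of 0.503 to parental on the shrunken scale. In OE it fell by 0.56 (interval -0.61 to -0.50, adjusted p = 1.6e-16 from limma), a ratio of 0.68. The direct difference of OE from KD was 0.43 (interval 0.38 to 0.49, adjusted p = 2.3e-14 from limma). LINC01013 shares 11.9% of the exonic bases of CCN2.

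CCN1, which encodes the related matrix protein once named CYR61, was lower in both comparisons but in another order. CCN1 (ENSG00000142871, chromosome 1 from 85580761 to 85584589, plus strand) was 10.40, 10.41 and 10.42 in the parental libraries, 10.28, 10.33 and 10.27 in KD, and 10.02, 10.08 and 10.05 in OE. The libraries labelled OE were the lowest, and no 2 groups overlapped. CCN1 fell by 0.12 in KD (adjusted p = 2.7e-04 from limma) and by 0.36 in OE (adjusted p = 4.1e-13 from limma). The direct difference of OE from KD was -0.25 (95% confidence interval -0.30 to -0.19, adjusted p = 9.6e-10 from limma), opposite in sign to that of CCN2.

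AMOTL2, an angiomotin that binds YAP and is itself a target of it, fell in both. AMOTL2 (ENSG00000114019, chromosome 3 from 134355347 to 134375479, minus strand) was 12.06 in each of the 3 parental libraries, 11.56, 11.55 and 11.55 in KD, and 11.67, 11.67 and 11.74 in OE. No 2 groups overlapped. The fall was by 0.51 in KD (95% confidence interval -0.55 to -0.47, adjusted p = 1.3e-20 from limma) and by 0.37 in OE (-0.41 to -0.33, adjusted p = 3.5e-16 from limma), and OE lay above KD by 0.14 (adjusted p = 3.1e-07 from limma).

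AJUBA, a LIM protein that binds LATS kinases, was the lowest of the 9 genes. AJUBA (ENSG00000129474, chromosome 14 from 22971177 to 22982551, minus strand) was 5.58, 5.66 and 5.62 in the parental libraries, 5.46, 5.48 and 5.55 in KD, and 5.39, 5.54 and 5.52 in OE. The parental libraries lay above the rest by a small margin. Its differences of -0.12 in KD (adjusted p = 0.0326 from limma) and -0.14 in OE (adjusted p = 0.0271 from limma) were called, but not in every alternative. The KD call was lost without parental replicate 2 or 3 and without KD replicate 1 or 2, with differences of -0.105, -0.124, -0.107 and -0.114. The OE call was lost without parental replicate 2 or 3 and without OE replicate 1, with differences of -0.118, -0.138 and -0.0915. KD and OE did not differ detectably, with a 95% confidence interval of -0.11 to 0.09.

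Promoter sequences were at hand for 6 of the 9 genes, in 9 windows. The motif GGAATG was also found once each before starts of YAP1, AMOTL2 and AJUBA, shown as stretches of 30 bases on the strand of the gene, with the match in capitals, to set beside the 3 matches of CCN2. YAP1 was called higher in KD and had no call in OE, while AMOTL2 and AJUBA were lower in both comparisons.
YAP1, chr11:102110273-102110302, plus strand: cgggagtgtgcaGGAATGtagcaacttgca
AMOTL2, chr3:134374499-134374528, minus strand: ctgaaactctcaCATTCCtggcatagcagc
AJUBA, chr14:22976884-22976913, minus strand: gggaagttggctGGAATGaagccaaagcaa
The matches begin 162 bases before the start for YAP1, 69 for AMOTL2 and 59 for AJUBA, and that of AMOTL2 is on the other strand. AMOTL2 and AJUBA have 2 starts each in the table, and the stretches shown belong to the start farther inside the gene, where they overlap an annotated exon of that gene, while that of YAP1 overlaps an exon of a gene without a name. The other windows of AMOTL2 and AJUBA, both of WWTR1 and that of TEAD3 held no match, which says only that these letters are not in these windows.

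**Figure D3:**
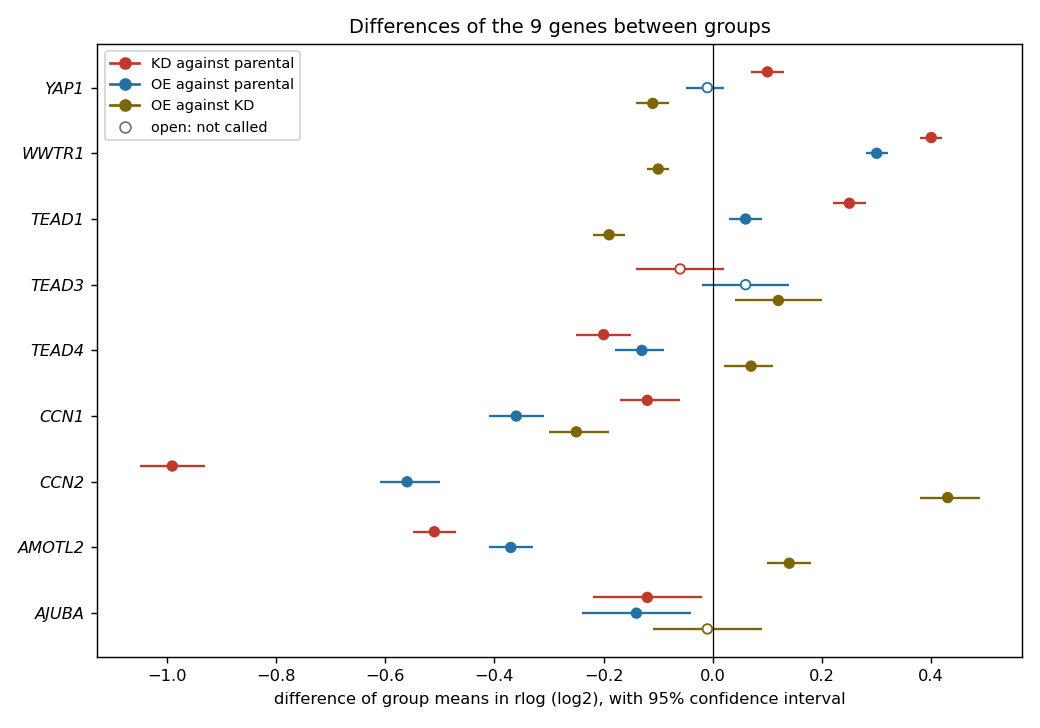
Differences of group means (log2, horizontal axis) of the 9 genes, with 95% confidence intervals from limma, for KD against parental, OE against parental and OE against KD. Filled points were called at an adjusted p under 0.05. CCN2 lies farthest left at -0.99 in KD, and WWTR1 farthest right among the differences from parental at 0.40 in KD.

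In the direct comparison of OE with KD, 8 of the 9 genes were called, with TEAD3, TEAD4, CCN2 and AMOTL2 higher in OE and YAP1, WWTR1, TEAD1 and CCN1 lower. The background was 47.3% of all genes, 23.5% higher and 23.8% lower, and 68.3% of those with a mean of at least 8. The order of levels per length in the parental libraries was WWTR1 (11.74), YAP1 (10.17), TEAD4 (9.66), AMOTL2 (9.36), TEAD1 (9.28), CCN2 (8.91), CCN1 (8.52), TEAD3 (6.9) and AJUBA (3.06). In the libraries labelled KD, TEAD1 (9.53) came before TEAD4 (9.46) and AMOTL2 (8.86), and CCN1 (8.41) before CCN2 (7.92). In those labelled OE, TEAD4 (9.52) came before TEAD1 (9.34) and AMOTL2 (9), and CCN2 (8.35) before CCN1 (8.16). Neighbours in these orders lay farther apart than the SD of either gene in each group. The orders within KD and OE depended on the length used: with the longest transcript TEAD4 (9.87) came before TEAD1 (9.71) in KD and CCN1 (8.43) before CCN2 (8.35) in OE, while the parental order stayed as given.

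Each gene was also set beside its neighbours on the chromosome. For CCN2 the other 38 genes with a mean of at least 8 in its 20-Mb block had a median difference of 0.036 in KD and 0.054 in OE, and CCN2 ranked 1 from the lowest in both. AMOTL2 also ranked 1 from the lowest in both among its 86 neighbours, with medians of 0.015 and 0.018. WWTR1 ranked 43 from the lowest in KD and 44 in OE when set among its 45 neighbours, whose medians were 0.0018 and -0.0014. CCN1 ranked 10 from the lowest in KD and 2 in OE among 47 neighbours, with medians of 0.032 and 0.038. For YAP1 the 69 neighbours had a median of 0.028 in KD, and the YAP1 difference after removal of block medians was 0.0737. YAP1 ranked 49 from the lowest in KD and 34 in OE. TEAD1 ranked 95 and 77 among 103 neighbours, and TEAD3 ranked 33 and 119 among 149. For TEAD4 the ranks were 10 and 8 among 82, and for AJUBA 13 and 5 among 76.

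**Figure D4:**
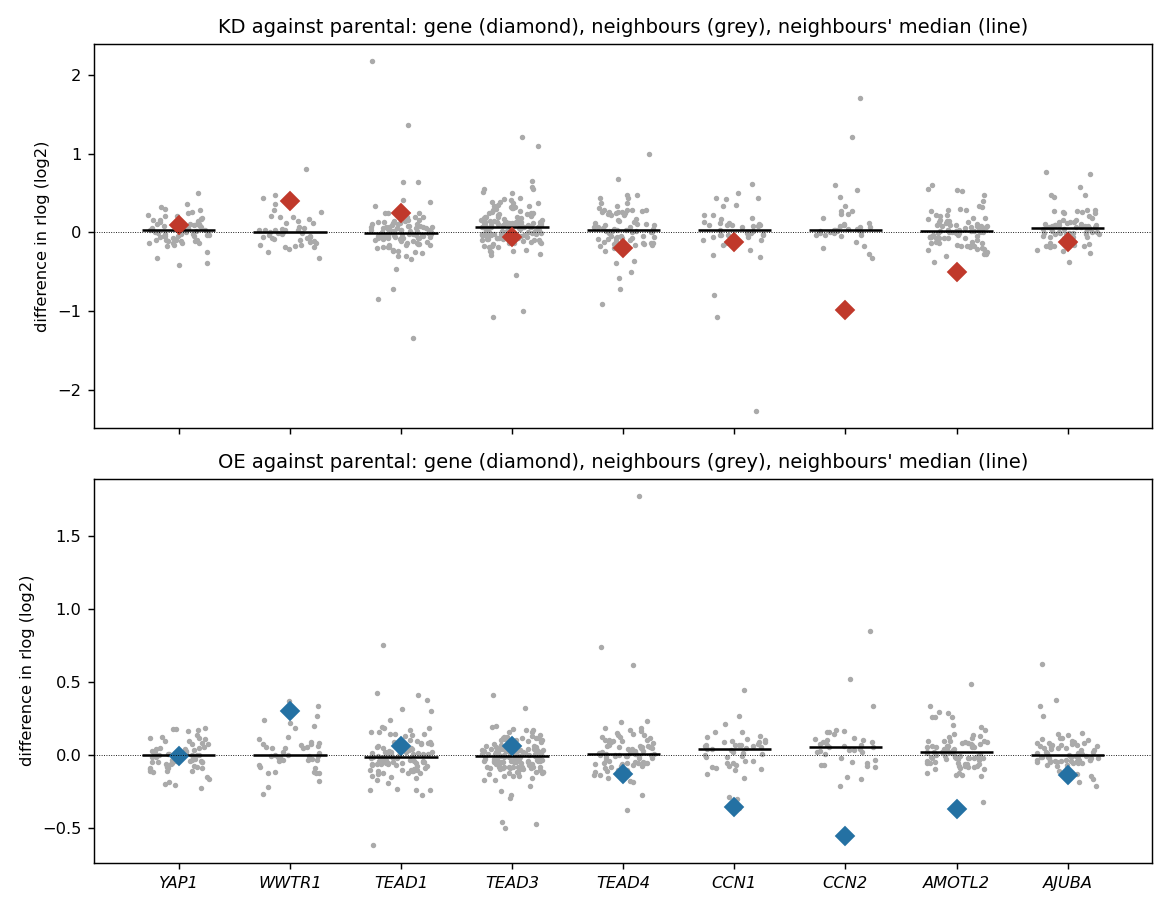
Difference from parental (log2, vertical axis) of each of the 9 genes (diamond) and of the other genes with a mean of at least 8 in the same 20-Mb block (grey points, with their median as a line), for KD (upper panel) and OE (lower panel). The diamonds of CCN2 and AMOTL2 lie below all their neighbours in both panels.

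Genes whose values over the 9 libraries were most like those of a member were found by the root mean square difference after each gene was centred on its own mean, over 9781 other genes with a symbol and a mean of at least 8. For CCN2 these were FOXC2, CXCL1 and PRSS23, at 0.036, 0.05 and 0.066, beside a root mean square of CCN2 about its own mean of 0.41. For CCN1 they were SHROOM2, NRP1 and CCND1, at 0.017, 0.022 and 0.024, beside 0.15. For WWTR1 they were PYGL, DYNC2I1 and SNX1, at 0.013, 0.014 and 0.018, beside 0.17. For YAP1 they were PTPN2, CDC42BPB and GNPDA1, each at 0.014, beside 0.051, so that YAP1 had less variation for a likeness to show. With 3 groups, a likeness mostly says that the 3 means are placed alike.

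The paralogue TEAD2 and cofactors of TEAD were described from a list of 7, of which 5 had values, TEAD2 and 4 cofactors. In KD 3 rose and 2 fell, and in OE 5 rose and 0 fell (also 0 at an unadjusted p under 0.05), with medians of 0.28 and 0.16. Beside this list and those below stand the shares over all genes, of which 53.7% were called in KD and 34.8% in OE, with medians of -0.00051 and 0.00039. The 5 rises in OE became 3 without parental replicate 1, parental replicate 2 or OE replicate 2, where neither VGLL3 (0.129, 0.131 and 0.111) nor ARID1A (0.0413, 0.0371 and 0.0325) was called. VGLL3 was also not called without parental replicate 3, at 0.126, after quantile normalization, at 0.0975, or after block medians were removed, at 0.0604, and ARID1A not without OE replicate 3, at 0.0418, or without a variance trend, at 0.0436. ZEB1, a repressor of epithelial genes that can join YAP, rose by 0.33 in KD (adjusted p = 1.3e-14 from limma) and by 0.19 in OE (adjusted p = 1.5e-08 from limma). VGLL4, which competes with YAP for TEAD, fell by 0.40 in KD (adjusted p = 6.7e-16 from limma) and rose by 0.16 in OE (adjusted p = 2.2e-06 from limma), and the direct difference of OE from KD was 0.56. VGLL3 fell by 0.35 in KD.

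Of the 13 genes of the kinase core, 3 rose and 7 fell in KD, and 1 rose and 6 fell in OE, with medians of -0.053 and -0.055. All 13 had a mean of at least 8, a level at which 75.8% of genes were called in KD and 56.7% in OE, so that 10 and 7 of 13 are close to the background. Without parental replicate 2 or KD replicate 1, 1 rather than 3 rose in KD. Without parental replicate 1 or 2, KD replicate 1 or 2, or OE replicate 2, 6 rather than 7 fell in KD. MAP4K4, called at -0.03 in KD, was not called in these fits or in some others, among them that with block medians removed, at -0.0019. The sizes were small: the differences ran from -0.29 to 0.09 in KD and from -0.10 to 0.10 in OE. STK38 and STK38L, kinases related to LATS, fell by 0.29 and 0.21 in KD. SAV1, the scaffold of the MST kinases, fell by 0.20 in KD (adjusted p = 1.5e-09 from limma) and by 0.10 in OE (adjusted p = 6.7e-04 from limma). LATS1, which phosphorylates YAP, fell by 0.14 in KD and by 0.08 in OE. LATS2, also listed as a target of YAP, was called lower by 0.07 in OE, but not without parental replicate 2 or 3, at -0.0751 and -0.0582, without OE replicate 1, at -0.0559, with library medians centred, at -0.0629, or after quantile normalization, at -0.0589. In KD its interval was from -0.11 to 0, and it was called after quantile normalization only, at -0.0624. TAOK1, a kinase upstream of MST, rose by 0.09 in KD and by 0.10 in OE, and TAOK3 by 0.07 in KD. STK4, or MST1, fell by 0.09 in OE, and its call at 0.05 in KD was lost after block medians were removed, at -0.00743, without a variance trend, at 0.0463, without parental replicate 1 or 2, at 0.0459 and 0.0456, and without KD replicate 1 or 2, at 0.0338 and 0.0453. TAOK3 was not called without parental replicate 2 or KD replicate 1, at 0.0608 and 0.0548.

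Of the upstream regulators and the proteins that hold YAP in the cytoplasm, 18 of 20 had values. In KD 6 rose and 8 fell, and in OE 5 rose and 8 fell, with medians of 0.016 and -0.03. NF2, the tumour suppressor merlin that brings LATS to the membrane, had a parental mean of 11.51 ± 0.026 (SD, n = 3) and a KD mean of 11.03 ± 0.012 (SD, n = 3), a fall by 0.48 (adjusted p = 2.9e-19 from limma), and in OE it fell by 0.24 (adjusted p = 7.0e-11 from limma). WWC1, the KIBRA scaffold, fell by 0.42 in KD and by 0.12 in OE. PATJ, a polarity protein, rose by 0.44 in KD and by 0.19 in OE, and FAT4, a large cadherin, rose by 0.44 in KD and was not called in OE. DCHS1, the cadherin ligand of FAT4, rose by 0.30 in KD and by 0.45 in OE, and AMOT, an angiomotin like AMOTL2, rose by 0.33 in KD and by 0.26 in OE. YWHAB, a 14-3-3 protein, fell by 0.11 in KD and by 0.15 in OE.

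Other target genes known from published signatures of YAP and TAZ were given by a list of 19, all with values. In KD 4 rose and 12 fell, with a median of -0.13, and in OE 4 rose and 9 fell, with a median of -0.034. Of the 19 genes, 15 had a mean of at least 8, a level at which 75.8% of genes were called in KD and 56.7% in OE. The counts called are thus not far from the background. GADD45A, which acts in growth arrest, fell by 0.55 in KD (adjusted p = 2.1e-19 from limma) and by 0.40 in OE (adjusted p = 3.5e-15 from limma). MYOF, a membrane repair protein, fell by 0.53 in KD and by 0.30 in OE, and AXL, a receptor tyrosine kinase, fell by 0.35 in OE and by 0.39 in KD. CCDC80, a matrix protein, rose by 0.76 in KD (adjusted p = 5.5e-16 from limma) and by 0.61 in OE (adjusted p = 7.9e-13 from limma). IGFBP3, which binds insulin-like growth factors, rose by 0.69 in KD and by 0.17 in OE. RBMS3, an RNA-binding protein, rose by 0.65 in OE and was not called in KD, and the KD difference was called at 0.12 without parental replicate 2 and at 0.314 after block medians were removed. ANKRD1, a target often used beside CCN1 and CCN2, had a mean of 3.23 in the parental libraries and was not called in either comparison. When a library was left out, the falls of this list ran from 10 to 12 in KD and from 8 to 9 in OE. The rises then ran from 4 to 5 in KD and from 3 to 4 in OE. The KD falls so lost were those of DOCK5 at -0.05, TGFB2 at -0.13 and F3 at -0.12. After block medians were removed, ASAP1 went from -0.17 to 0.0833 in KD. LATS2 and PTPN14 of this list are also in the lists of kinases and upstream regulators.

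**Figure D5:**
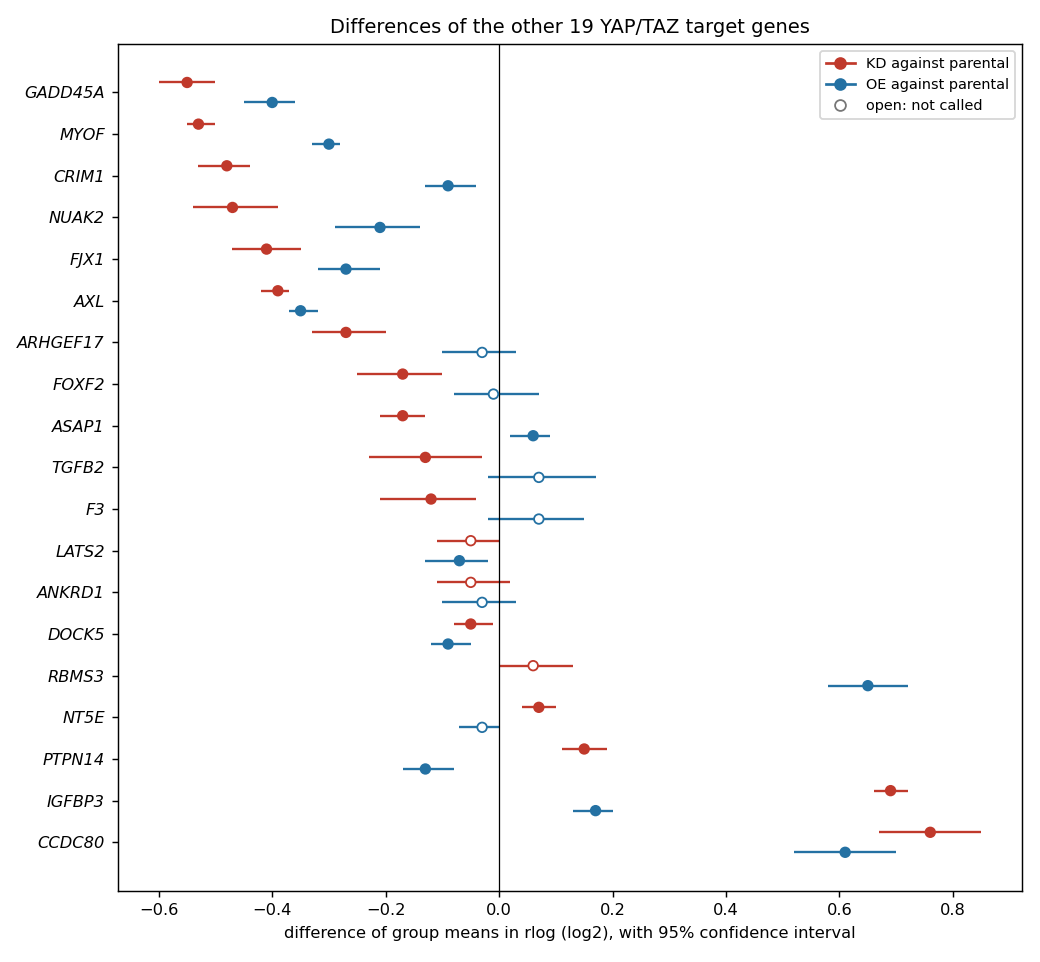
Differences from parental (log2, horizontal axis) of the other 19 target genes, with 95% confidence intervals from limma, for KD and OE, in the order of the KD difference. Filled points were called at an adjusted p under 0.05. GADD45A lies at -0.55 and CCDC80 at 0.76 in KD.

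Among subunits of AP-1, the factor that often binds beside TEAD, FOS and ATF3 differed from parental in KD by more than CCN2 did. Of 9 listed, 7 had values, and 3 rose and 4 fell in KD, while 3 rose and 2 fell in OE. FOS had a parental mean of 9.31 ± 0.057 (SD, n = 3) and a KD mean of 10.43 ± 0.017 (SD, n = 3), a rise of 1.13 (adjusted p = 1.7e-24 from limma), and in OE it rose by 0.46 (adjusted p = 1.1e-13 from limma). FOSL1, by level per length the most abundant subunit of the list, fell by 0.72 in KD (adjusted p = 1.6e-28 from limma) and by 0.52 in OE (adjusted p = 9.4e-24 from limma). ATF3 fell by 1.12 in KD and by 0.44 in OE. JUND rose by 0.08 in KD and by 0.09 in OE, and FOSL2 rose by 0.07 in KD and by 0.16 in OE. Without parental replicate 1 JUND and FOSL2 were not called in KD, at 0.0499 and 0.0631, so that 1 subunit rather than 3 rose, and JUND was not called in OE, at 0.0556. FOSL2 was also not called in KD without parental replicate 3, at 0.0628, or KD replicate 3, at 0.0618.

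The mesenchymal markers had no common direction. Of 25 listed, 24 had values, among them FOSL1 and FOSL2 of the AP-1 list. In KD 11 rose and 9 fell, and in OE 9 rose and 8 fell, with medians of 0.054 and 0.022. PRRX1, a homeobox factor of the mesenchymal state, had a parental mean of 11.70 ± 0.055 (SD, n = 3) and a KD mean of 12.99 ± 0.0071 (SD, n = 3), a rise of 1.29 (adjusted p = 3.1e-31 from limma), and in OE it rose by 0.69 (adjusted p = 5.0e-23 from limma). TBX18 rose by 0.61 in KD. THBS1, a matrix glycoprotein, fell by 1.48 in KD (adjusted p = 2.2e-35 from limma) and by 0.52 in OE (adjusted p = 1.9e-22 from limma). FN1, fibronectin, fell by 0.96 in KD (adjusted p = 3.0e-33 from limma) and rose by 0.55 in OE (adjusted p = 8.2e-26 from limma), with a direct difference of OE from KD of 1.51.

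The adrenergic markers had small differences. By limma 2 of 11 rose and 5 fell in KD, and 0 rose (also 0 at an unadjusted p under 0.05) and 3 fell in OE, with differences from -0.20 to 0.20 in KD and from -0.22 to 0.04 in OE. ALK rose by 0.20 in KD and fell by 0.22 in OE. MYCN rose by 0.08 in KD, a call lost without parental replicate 2, at 0.0546, so that 1 rather than 2 rose. Without OE replicate 2, 5 rather than 3 fell in OE. CHGA fell by 0.20 in KD, and TH fell by 0.18 in KD and by 0.15 in OE, all 3 of these genes at a low level. CHGB fell by 0.18 in OE, a call lost without parental replicate 1, at -0.113, and after block medians were removed, at -0.0243. In KD CHGB was called at -0.12, but not without parental replicate 1, at -0.0596, without KD replicate 1, 2 or 3, at -0.108, -0.137 and -0.124, without a variance trend, at -0.123, or after block medians were removed, at 0.0204. The summed level of the list per length, led by ISL1, was 9, 8.97 and 8.98 in the parental libraries, 8.90, 8.88 and 8.91 in KD, and 8.88, 8.95 and 8.90 in OE.

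Markers of other cell types were set beside these values. In bulk RNA, fewer cells of a type and less RNA per cell cannot be told apart. The epithelial list, with 13 of 17 measured and KRT18 as its most abundant gene, had a summed level per length of 10.84, 10.83 and 10.83 in the parental libraries, 10.84, 10.88 and 10.89 in KD, and 10.71, 10.70 and 10.71 in OE. In KD 2 of its genes rose and 2 fell, with KRT8 and DSP higher by 0.39 and 0.37 and JUP and KRT7 lower, with differences of -0.44 and -0.27. In OE 1 rose and 3 fell, with KRT8 higher by 0.40 and CLDN4 and DSP lower, with differences of -0.57 and -0.19. The Schwann cell list, with 3 of 5 measured and ERBB3 most abundant, was at 11.37, 11.37 and 11.34 in the parental libraries, 11.54, 11.54 and 11.52 in KD, and 11.56, 11.56 and 11.57 in OE. ERBB3 rose by 0.31 in KD, and S100B rose by 0.29 and ERBB3 by 0.13 in OE. The leukocyte and endothelial list, with 6 of 8 measured and PECAM1 most abundant, was at 7.2, 7.23 and 7.21 in the parental libraries, 7.29, 7.29 and 7.26 in KD, and 6.73, 6.81 and 6.87 in OE. KDR, a receptor for VEGF, fell by 1.32 in KD and by 0.84 in OE, PECAM1 rose by 0.47 in KD and fell by 0.28 in OE, VWF rose by 0.21 in KD, and CD14 fell by 0.18 in KD and by 0.13 in OE, a call lost without parental replicate 1, at -0.108, and without OE replicate 1, at -0.095. The defining markers EPCAM, PTPRC and CDH5 were at 1.31, -1.30 and -1.95 per length in the parental libraries, at percentiles 12.6, 2.4 and 1.05 of protein-coding genes. The part of other cells in the differences of the 9 genes was not tested.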

How the data were processed

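RNA of 9 libraries was sequenced by the authors on an Illumina NovaSeq after preparation with a TruSeq RNA v2 kit, which does not mark the strand. Per the authors' methods and the submitters' processing notes, reads were trimmed with cutadapt (quality under 20, reads under 36 bases removed), aligned to GRCh38 with HISAT2 and counted per gene with featureCounts of Subread. Genes with a total count under 10 were removed. The deposited values are regularized log2 values that the authors made with DESeq2. Tool versions and the gene annotation are not given in the sources used here. The authors' methods state paired reads and a coverage in reads without a total for each library, and the table used here gives no such total, so the depth that each library reached is unknown.

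The log2 values were used as deposited, with all 22290 genes. Symbols, positions and exonic lengths came from GENCODE release 44 on GRCh38, which held 22195 of the identifiers, and promoters came from RefSeq. Groups were compared with limma 3.58.1 in R 4.3.3 (9 libraries in 3 groups, 6 residual degrees of freedom, a variance trend on the mean, two-sided), with Benjamini-Hochberg adjustment over all genes and calls at an adjusted p under 0.05. The procedure was tested on simulated data with independent libraries, in which few genes with a mean of at least 8 were changed, in KD only. Such data hold no effect of culture or line and far fewer changed genes than were called here. The 9 genes and the lists were chosen with earlier results of these data known. Named genes were the 9 genes, TRAP1, markers of the cell types, of which some were picked by their level once it was seen, and in each list the 2 largest rises and the 2 largest falls among the genes called in each comparison with parental; ANKRD1, LATS1, LATS2, ARID1A and some values of a further comparison were added after their values were seen. A few genes of the lists chosen at the start are not reported here, and the counts, medians and sums of those lists leave them out. Alternatives changed the variance model, a filter at a mean of 5, the scaling, 20-Mb block medians, the libraries fitted, a replicate block and the exonic length.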

Additional observations from a re-analysis of the deposited data

How the results depend on the processing

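Each comparison was repeated under 17 alternatives, 9 of which left out a library. For the 9 genes and 3 comparisons no called difference changed sign: 446 of the repeated results kept their direction or stayed uncalled, 12 lost a call and 1 gained it. All 12 concerned AJUBA, or TEAD3 and TEAD4 in OE against KD, when a library was left out, and the gain was that of TEAD3 in KD after block medians were removed. The number of the 9 genes called higher in OE than in KD was 4 and ran from 2 to 4 when a library was left out, with 2 without OE replicate 3; the cause was not tested.

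With a replicate block, 12015 genes were called in KD, 7854 in OE and 10623 in OE against KD, beside 11980, 7764 and 10552 without it, and 8, 7 and 8 of the 9 genes as before. Libraries with the same replicate number carry consecutive S numbers in their column headers, in the order parental, KD, OE. What the S numbers stand for is not given. The deviations of libraries with the same replicate number correlated from -0.12 to 0.27, over 0.1 in 2 of 9 pairs. Not every library correlated best with its own replicate number, so these numbers were not taken to pair the libraries.

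Among the other genes, 8 repeated results reversed, each after removal of block medians, whose construction takes out what a gene shares with its block. In KD these were STK4 at -0.00743, MOB1B at -0.374, RASSF1 at 0.0457, ASAP1 at 0.0833 and CHGB at 0.0204, and in OE against KD MOB1B at 0.47, YWHAB at 0.0332 and OVOL1 at 0.0404. With the length of the longest transcript, levels per length in the parental libraries moved by more than the SD of those libraries for 7 of the 9 genes, to 12.47 for WWTR1, 10.39 for YAP1, 10.07 for TEAD4, 9.78 for AMOTL2, 9.47 for TEAD1, 8.79 for CCN1 and 3.56 for AJUBA, in the same order, but in KD TEAD4 then came before TEAD1 and in OE CCN1 before CCN2. The shrinkage of the deposited values limits what can be said of AJUBA and other low genes.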
